A study of Mus musculus with 2 samples.

Results

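The genes described here encode the content of the secondary, or specific, granules of the neutrophil. They are Ltf, Camp, Lcn2, Ngp, Chil3, Hp, Olfm4, Cd177 and Pglyrp1, chosen by name as known products of these granules. All 9 were found among the 55536 genes of the gene tables, of which 22028 are protein-coding, and all 9 passed the minimum of 10 counts over both libraries used for tests.

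The RNA came from primary neutrophils of the mouse spleen. The animals were adult males of the strain B6CASTF1/J at 65 days of age, the F1 hybrid strain whose dam is C57BL/6 and whose sire is CAST/EiJ. The labels give 1 group of 2 libraries, named biological replicate 1 and biological replicate 2, and name no treatment and no control group. Each library was made from 300 ng of total RNA with a directional kit and with ERCC spike-in RNA added. A single donor identifier is attached to both, so separate animals are not shown, and every p below measures only counting error between these libraries. How the cells were purified was not given in the sources used here.

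A neutrophil fills its granules in sequence while it matures in the bone marrow. The primary granules are filled first, at the promyelocyte stage, with myeloperoxidase and serine proteases. The secondary granules follow at the myelocyte and metamyelocyte stages with iron- and siderophore-binding proteins and antimicrobial peptides, and the transcription factor C/EBP epsilon is needed for their content in mice. Tertiary granules with gelatinase come later, and mature cells release the stored proteins when they meet microbes.

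Replicate 1 held 18310053 expected counts on annotated genes and replicate 2 held 18042978. Levels below are the deposited TPM, an abundance scaled by transcript length, which allows levels to be compared between genes. They come from tables in the column layout of RSEM unless the transcript tables in the layout of kallisto are named. TPM sums to a fixed total, and the pair of 7SL RNA genes took 43.8% of it in replicate 1 and 31.6% in replicate 2, while protein-coding genes took 32.8% and 45.4%. Neutrophil identity was checked with 8 markers, all detected in both libraries. S100a9, a calcium-binding protein of the neutrophil cytosol, stood at 13196 TPM in replicate 1 and 27792 TPM in replicate 2, and the surface antigen gene Ly6g at 221 and 370 TPM. The defining T cell marker Cd3e was at 0.11 TPM in replicate 1 and 0.08 TPM in replicate 2. Macrophage and monocyte markers were present, with 9 genes that summed to 109 TPM in replicate 1 and to 146 TPM in replicate 2. Among them Csf1r was the highest at 68.6 and 80.5 TPM, and 4 of the 9 reached 1 TPM in each library. Cd68 stood at 25.2 and 45.7 TPM and Adgre1 at 7.61 and 10.6 TPM, while C1qa was at 0.20 and 0.11 TPM. B cell markers were low but unequal, and 6 of them summed to 5.60 TPM in replicate 1 and to 19.1 TPM in replicate 2. Erythroid markers summed to 70.8 and 170 TPM over 7 genes.

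The iron- and siderophore-binding proteins and the cathelicidin-related proteins were the most abundant members. Ngp, the neutrophilic granule protein of the cystatin and cathelicidin family (ENSMUSG00000032484.8, mm10 chromosome 9, 110419747 to 110423012, plus strand), stood at 5275 TPM in replicate 1 and 8479 TPM in replicate 2, a mean of 6877 ± 2265 TPM (SD, n = 2). It ranked 3 among protein-coding genes in each library. Ltf, which encodes the iron-binding protein lactoferrin (ENSMUSG00000032496.7, chromosome 9, 111019271 to 111042767, plus strand), stood at 3988 TPM in replicate 1 and 5481 TPM in replicate 2, or 4734 ± 1056 TPM (SD, n = 2). It ranked 5 and 6. Lcn2, which encodes lipocalin 2, a protein that binds the siderophores with which bacteria collect iron (ENSMUSG00000026822.14, chromosome 2, 32384633 to 32388252, minus strand), stood at 2151 TPM in replicate 1 and 4530 TPM in replicate 2, or 3340 ± 1682 TPM (SD, n = 2). As a ratio between the libraries, its gap was the widest of the 9 genes. Camp, the precursor of the antimicrobial peptide CRAMP (ENSMUSG00000038357.10, chromosome 9, 109847379 to 109849617, minus strand), stood at 2021 TPM in replicate 1 and 3084 TPM in replicate 2, or 2553 ± 752 TPM (SD, n = 2), and ranked 10 in each library.

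The chitinase-like protein and the pattern-recognition protein came next in level, and the haemoglobin-binding protein was lower. Chil3, which encodes the mouse chitinase-like lectin Ym1 (ENSMUSG00000040809.10, chromosome 3, 106147554 to 106167564, minus strand), stood at 989 TPM in replicate 1 and 1556 TPM in replicate 2, or 1273 ± 401 TPM (SD, n = 2). Pglyrp1, a protein that binds the peptidoglycan of bacterial walls (ENSMUSG00000030413.7, chromosome 7, 18871331 to 18890459, plus strand), stood at 657 TPM in replicate 1 and 1051 TPM in replicate 2, or 854 ± 278 TPM (SD, n = 2). Hp, which encodes the haemoglobin-binding protein haptoglobin (ENSMUSG00000031722.10, chromosome 8, 109575128 to 109579172, minus strand), stood at 324 TPM in replicate 1 and 477 TPM in replicate 2, or 401 ± 108 TPM (SD, n = 2). Haptoglobin is also a major product of the liver. The hepatocyte genes Alb, Apob, Fgb and Ttr had 0 counts in both libraries, which allows at most 0.172 TPM of Alb in replicate 1 and 0.202 TPM in replicate 2. In the same list Apoa1 had 2 counts in replicate 1 and 0 in replicate 2. Serpina1a had 5.55 and 1.59 counts, or 0.18 TPM in each library.

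The membrane protein of the granule stood between Pglyrp1 and Hp, and the secreted glycoprotein olfactomedin 4 was far lower. Cd177, a surface protein held by a lipid anchor and stored in the granule membrane (ENSMUSG00000052212.6, chromosome 7, 24743983 to 24760311, minus strand), stood at 404 TPM in replicate 1 and 596 TPM in replicate 2, or 500 ± 136 TPM (SD, n = 2). Olfm4, which encodes a protein that only a subset of neutrophils carries (ENSMUSG00000022026.7, chromosome 14, 79984081 to 80023139, plus strand), was the lowest member. Its level was 72.7 TPM in replicate 1 and 97.7 TPM in replicate 2, or 85.2 ± 17.7 TPM (SD, n = 2), at rank 817 and 736 among protein-coding genes. In bulk RNA, fewer cells that carry a transcript and less transcript per cell cannot be told apart. The highest member lay 72.6-fold above the lowest in replicate 1 and 86.8-fold in replicate 2. Still, Olfm4 exceeded the median of the protein-coding genes with TPM above 0, at 4.67 in replicate 1 and 5.69 in replicate 2.

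**Figure D1:**
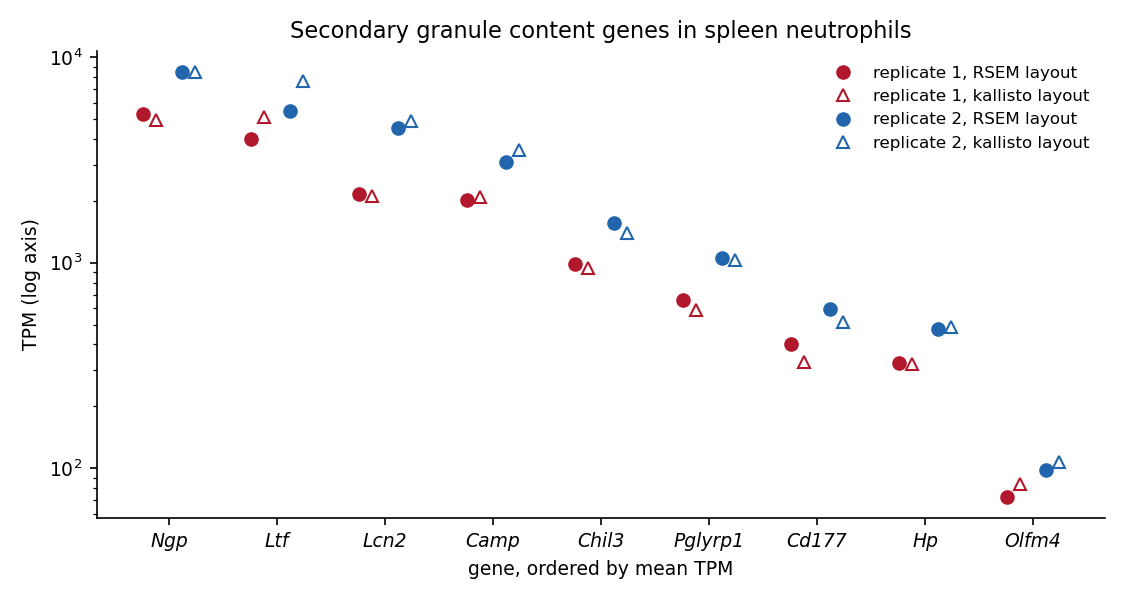
The level of each of the 9 genes in TPM on a log axis, in replicate 1 and replicate 2, with filled circles for the RSEM-layout tables and open triangles for the kallisto-layout tables. The order from Ngp to Olfm4 is the same in both libraries by the filled circles, and replicate 2 lies above replicate 1 for each gene in these units, though not for Ltf and Olfm4 in TPM taken over protein-coding genes.

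The order of the deposited TPM, Ngp, Ltf, Lcn2, Camp, Chil3, Pglyrp1, Cd177, Hp and Olfm4, was the same in both libraries. Neighbours were separated beyond the spread of the libraries at 3 steps. Camp lay 2.01-fold above Chil3 by the means, Pglyrp1 lay 1.71-fold above Cd177, and Hp lay 4.70-fold above Olfm4. At the other 5 steps the ranges of the neighbours overlapped, and with TPM taken over protein-coding genes only those of Lcn2 and Camp did. The step from Ngp to Ltf also depended on how transcript length was handled. Ngp stood 1.45-fold above Ltf by the deposited gene TPM, 2.39-fold above it by counts per kb of the leading transcript, and 1.05-fold above it by the kallisto-layout table, where Ltf was the higher gene in replicate 1 with 5102 TPM against 4968 TPM for Ngp. By counts per kb of the leading transcript, Lcn2 exceeded Ltf in replicate 2, with 4601 against 3430, but not in replicate 1, with 2599 against 2833. Of the 9 genes, 0 differed over 1.5-fold between the layouts in the same direction in both libraries, against 6.92% of 10378 protein-coding genes with a mean of at least 1 TPM. Ltf had the widest gap, at 1.28-fold and 1.39-fold higher by kallisto layout.

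Of the TPM on protein-coding genes, the 9 members together took 4.84% in replicate 1 and 5.58% in replicate 2. The shares within the group were not fixed. Lcn2 made up 13.5% of the summed level of the members in replicate 1 and 17.9% in replicate 2. For Ltf the shares were 25.1% and 21.6%. Ngp held 33.2% and 33.4%, the closest of these pairs.

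The start regions of the abundant members are shown for the binding motif of the C/EBP family, which includes the factor that the specific granule needs. Sequences are from RefSeq on GRCm38.p6, read 5′ to 3′ on the strand of the gene, and capitals mark each match to TTNNGCAA on either strand. The Ltf stretch is chr9:111019042-111019291 on the plus strand and the Ngp stretch is chr9:110419558-110419746 on the plus strand. The Chil3 stretch is chr3:106167565-106167814 on the minus strand, and that of its paralog Chil4, chr3:106219508-106219729 on the minus strand, is added because the paralogs differed in level. The stretches of Ngp and Chil4 end before the GENCODE start of their main transcript.
Ltf: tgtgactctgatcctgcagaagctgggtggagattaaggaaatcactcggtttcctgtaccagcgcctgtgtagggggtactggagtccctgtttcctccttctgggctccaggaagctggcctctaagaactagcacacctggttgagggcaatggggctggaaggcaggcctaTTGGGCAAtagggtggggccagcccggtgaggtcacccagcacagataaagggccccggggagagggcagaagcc
Ngp: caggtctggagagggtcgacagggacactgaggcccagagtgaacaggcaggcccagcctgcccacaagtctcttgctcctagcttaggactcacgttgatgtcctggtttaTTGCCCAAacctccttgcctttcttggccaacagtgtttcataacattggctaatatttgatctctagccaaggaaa
Chil3: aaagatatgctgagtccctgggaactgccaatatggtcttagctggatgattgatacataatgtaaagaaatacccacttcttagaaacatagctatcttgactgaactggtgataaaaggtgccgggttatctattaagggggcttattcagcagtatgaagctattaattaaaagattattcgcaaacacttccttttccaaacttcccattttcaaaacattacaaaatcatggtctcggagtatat
Chil4: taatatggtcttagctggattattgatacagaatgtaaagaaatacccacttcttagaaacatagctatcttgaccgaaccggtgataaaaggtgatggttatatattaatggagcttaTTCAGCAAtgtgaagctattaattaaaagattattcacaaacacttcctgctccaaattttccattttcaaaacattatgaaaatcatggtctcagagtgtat
The match in Ltf lay 75 to 68 bases before the RefSeq start and the first match in Ngp lay 138 to 131 bases before it. A second match in Ngp, 11 to 4 bases before the RefSeq start, falls past the stretch shown, and Lcn2 had a match at 216 to 209 bases. Of the 8 members with an entry in the promoter table, 3 held TTNNGCAA in the 250 bases before the RefSeq start, against 9.56% of 32851 windows of that length. Part of some windows lies within the leading transcript by its GENCODE start. That part is 161 bases in Camp, 61 in Ngp, 58 in Lcn2, 51 in Olfm4 and 10 in Pglyrp1. The motif AGGAAG of the myeloid factor PU.1 was in 6 of the 8, against 29.5% of all windows, and AGATAA of the GATA factors was in 3, against 9.99%. TATAAA, the TATA box, was in Cd177 alone of the 8, against 12.4% of all windows. The Chil4 window held TATAAA 31 to 26 bases before its RefSeq start, where the stretch shown cuts it. The Chil3 window ends within the matching bases, so it cannot show whether Chil3 has this motif there. The motifs were searched on both strands and were chosen after the windows had been seen, and matches of different motifs did not overlap. A match here describes letters and not bound sites. Hp has no entry in the table.

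Chil3 and Chil4 are close paralogs that differed widely in RNA. The leading transcripts Chil3-201 and Chil4-201 were 94.3% identical over 1540 aligned positions, and their 250-base windows were 72.0% identical over 279. Gaps count as differences in both figures. Each window is placed by its own annotated start, and that of Chil4 runs past the point where that of Chil3 ends. The lower identity of the windows therefore includes this offset, and the identity of the paired bases alone was not measured. Chil4 stood at 0.65 TPM in replicate 1 and 0.71 TPM in replicate 2 in the RSEM-layout tables, which put Chil3 1521-fold and 2192-fold above it. The kallisto-layout tables gave Chil4 3.22 and 4.47 TPM, and folds of 293 and 312. The order of the paralogs was thus the same in each table, while the fold was over 5 times larger by RSEM layout. The part of shared reads in that gap was not tested. In Chil3-201, 44.8% of the words of 31 bases also occur in transcripts of Chil4, Gm6522 or Chia1, and 5.42% of the words of 100 bases do. Cd177-201 shared 7.12% of its 31-base words with Gm4763 and BC049730, its neighbours on chromosome 7, and these stood at 4.25 and 0.51 TPM in replicate 1 and at 2.57 and 0.95 TPM in replicate 2. Olfm4-203 shared 4.47% with the overlapping noncoding gene Gm6999, which had 0 counts in both libraries. Words of Ngp, Ltf, Lcn2, Camp and Pglyrp1 occurred in no other gene, and 7 of the 9 members had whole expected counts, with Chil3 and Cd177 as the exceptions.

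Camp, Ngp and Ltf lie on the same stretch of chromosome 9. The gap from Camp to Ngp is 570129 bases and holds 8 protein-coding genes, of which the highest was Ptpn23 at a mean of 43.3 TPM. The gap from Ngp to Ltf is 596258 bases and holds 20 protein-coding genes, of which 15 were below 1 TPM and the highest was Nbeal2 at a mean of 129 TPM. Nbeal2 encodes a protein needed for platelet alpha granules. The 3 members thus stood far above the coding genes that separate them.

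The transcript tables described how each gene's RNA was divided among annotated transcripts. Camp and Ngp have 1 annotated transcript each. For Chil3, Cd177 and Pglyrp1, the leading protein-coding transcript took at least 88.8% of the gene's TPM in every library and table. Pglyrp1-204, a processed transcript, took 5.41% in replicate 1 and 5.23% in replicate 2 by the kallisto-layout tables. The RSEM-layout tables gave it 0.74% and 0.63%. Each layout put the same transcript first in all 9 genes and both libraries, except for Ltf in replicate 1.

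Ltf was the member whose transcripts were least settled. The full-length coding transcript Ltf-201, with 17 exons and 2743 bases, took 53.5% of Ltf TPM in replicate 1 and 54.9% in replicate 2 by the RSEM-layout tables, but 31.1% and 31.5% by the kallisto-layout tables. Short annotated transcripts took most of the rest, and the layouts differed on which. Ltf-211, a 373-base transcript annotated as subject to nonsense-mediated decay, took 38.5% and 19.6% by RSEM layout and 0% by kallisto layout in both libraries. Ltf-208, a 511-base retained-intron transcript, took 36.5% and 19.4% by kallisto layout, but 1.16% and 0.48% by RSEM layout. By counts, which are not divided by length, Ltf-201 held 90.9% and 89.1% by RSEM layout and 77.4% and 77.3% by kallisto layout. Ltf-207, another decay-annotated transcript, had 2.47% and 11.3% of TPM by RSEM layout and 14.8% and 21.6% by kallisto layout. By kallisto layout the short coding transcripts Ltf-204 and Ltf-209 took 7.46% and 6.37% in replicate 1 and 9.35% and 13.5% in replicate 2.

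For Lcn2 the layouts differed within the coding transcripts. Lcn2-201 took 99.2% in replicate 1 and 99.6% in replicate 2 by RSEM layout, and 67.8% and 69.4% by kallisto layout. Nearly all the remainder by kallisto layout, 31.6% and 30.3%, was Lcn2-206, a coding transcript with 7 exons of which 321 bases lie outside Lcn2-201. Each layout gave nearly the same split in both libraries, and the layouts differed by more than the libraries did. Hp-201 took 98.9% and 85.6% by RSEM layout and 84.0% and 81.6% by kallisto layout. By kallisto layout the remainder was mainly the processed transcript Hp-203, at 15.9% and 16.97%. By RSEM layout Hp-203 had 0% in replicate 1, where another processed transcript took the 1.10% left, and 13.6% in replicate 2. Olfm4-203 took 73.1% and 82.9% by RSEM layout. The RSEM layout gave the rest to the processed transcript Olfm4-202 in replicate 1, at 26.9%, and to the coding Olfm4-201 in replicate 2, at 17.1%. By kallisto layout Olfm4-203 took 50.9% and 67.0%, with Olfm4-202 at 43.4% and 14.6% and Olfm4-201 at 5.72% and 18.4%.

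**Figure D2:**
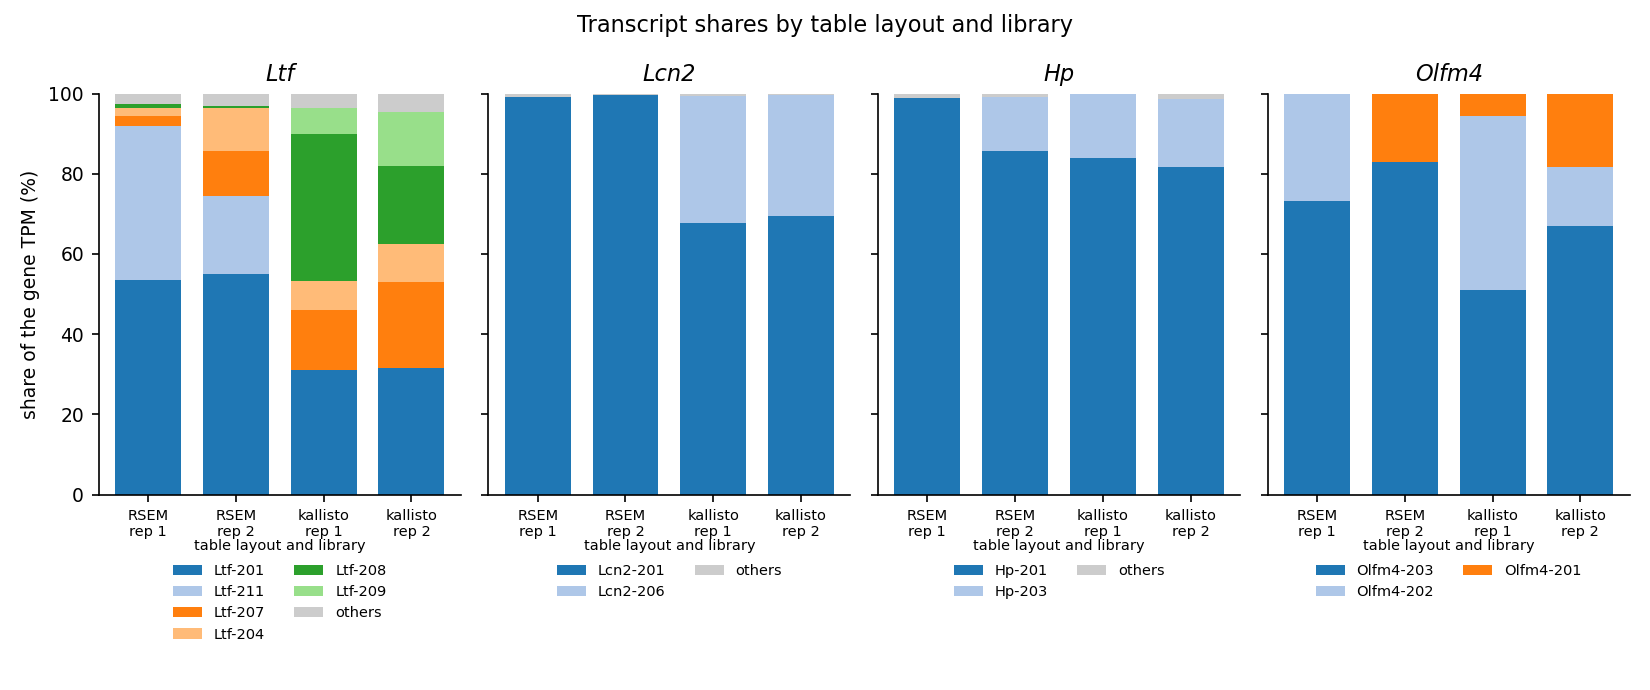
The share of gene TPM in percent taken by each annotated transcript of Ltf, Lcn2, Hp and Olfm4, as stacked bars for replicate 1 and replicate 2 of the RSEM-layout and the kallisto-layout tables. Ltf-201 stands at 53.5% and 54.9% in the RSEM-layout bars and at 31.1% and 31.5% in the kallisto-layout bars, and Lcn2-206 appears in the kallisto-layout bars of Lcn2.

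The libraries of the group were then set against each other, one gene at a time. The test was the exact binomial test, two-sided, applied to expected counts rounded to whole numbers, given library sizes scaled by edgeR's TMM, with Benjamini-Hochberg adjustment. Ratios are replicate 1 over replicate 2, so a negative log2 ratio is higher in replicate 2. Of 15118 genes tested, 31.3% passed an adjusted p of 0.05, of all tested 14.6% as higher in replicate 1 and 16.7% as higher in replicate 2. All 9 members were among those higher in replicate 2 with this scaling, but with TPM taken over protein-coding genes the ratio of Ltf was 0.01 and that of Olfm4 was 0.04, on the other side of 0. Counts this large make small differences pass: of 716 genes with at least as many counts as Olfm4, the least counted member, 82.5% differed, 33.9% as higher in replicate 1 and 48.6% as higher in replicate 2. By the second rule, a difference of at least 1.5-fold, replicate 1 had the higher value in 10.9% of all genes tested and replicate 2 in 10.4%. Of the 716 genes the shares were 1.26% and 3.21%. Of the members, 0 were higher in replicate 1 by this rule and 1, Lcn2, was higher in replicate 2.

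Lcn2 was counted 38259 times in replicate 1 and 68581 times in replicate 2. Its log2 ratio was -0.82, with a 95% counting interval of -0.84 to -0.81, at percentile 6.45 of all genes tested. Ngp had 129122 and 176705 counts and a log2 ratio of -0.43 (-0.44 to -0.42). Ltf had 135264 and 165807 counts and a ratio of -0.28. The adjusted p of these 3 genes in the exact binomial test was too small to hold and was written as 0. The adjusted p of the exact binomial test for the other 6 members lay between 6.23e-307 for Chil3 and 2.13e-24 for Hp.

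The other members lay nearer 0 than Lcn2 did. The log2 ratio was -0.42 for Pglyrp1, with 8554 counts in replicate 1 and 11621 in replicate 2, and -0.42 for Olfm4, with 3350 and 4541. It was -0.41 for Chil3, with 30822 and 41360 counts, and -0.36 for Camp, with 29009 and 37695. Cd177 had 22556 and 28511 counts and a ratio of -0.32, and Hp, with 8762 and 10336, lay nearest 0 at -0.22 (-0.26 to -0.18). Leaving Lcn2 aside, the other 8 genes lay between -0.43 and -0.22. The median over the 9 was -0.41, beside 0.00 over all genes tested and -0.05 over the 716 genes with as many counts.

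The size of the difference moved with the scaling. With ERCC counts as library sizes the median of all genes moved to -0.74 and that of the members to -1.15, 11180 genes differed, and 98.4% of them were higher in replicate 2, against 53.4% of those called with TMM. With TPM over protein-coding genes the median of all genes moved to 0.23 and that of the members to -0.14. The members' median lay below that of all genes by 0.41 with TMM, and DESeq2, ERCC and total-count scaling leave that gap as it is by construction, since they shift all genes alike. The gap was 0.38 with deposited TPM, 0.37 with protein-coding TPM and 0.39 with kallisto-layout TPM, and each of the 9 genes lay below the median of all genes in these units. With TMM scaling all 8 neutrophil markers were higher in replicate 2 too, at a median log2 ratio of -0.57. They ranged from -1.11 for S100a8 to -0.03 for Csf3r, which lay near the median of all genes. The shares higher in replicate 2 were 16.7% of all genes tested and 48.6% of the 716 genes with as many counts as Olfm4. The 8 markers summed to 26213 TPM in replicate 1 and 57768 TPM in replicate 2. Of other cell types, 5 of 6 B cell markers and 5 of 7 erythroid markers were higher in replicate 2 and 0 in replicate 1, at median log2 ratios of -1.60 and -1.05. Of 5 macrophage and monocyte markers tested, 3 were higher in replicate 2 and 0 in replicate 1. The 6 eosinophil markers summed to 11.8 and 19.3 TPM, with 2 of 3 tested higher in replicate 2. The 7 T and NK cell markers summed to 0.61 and 0.59 TPM, with Ncr1 at 0 counts in both libraries and the 1 gene tested, Cd3g, not passing. The part of these cells, of the ERCC content, which was 1.65-fold higher in replicate 1, and of the 7SL share in the members' difference was not tested.

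Retained-intron transcripts of the members were compared with their coding transcripts in the same way, in genes with at least 50 expected counts on each class over both libraries. This comparison was chosen after the data had been seen. Lcn2 had 185 retained-intron counts in replicate 1 and 157 in replicate 2, against 37956 and 68319 coding counts, by RSEM layout. Its log2 ratio was 0.26 for the retained-intron class and -0.83 for the coding class, a difference of 1.09. The difference was 0.70 in Pglyrp1, 0.61 in Ltf, 0.50 in Cd177 and 0.17 in Chil3, so it was above 0 in all 5 members measured. It was above 0 in 70% of 4099 genes too, with a median of 0.26, and the direction was therefore common to most genes. By kallisto layout it was 1.25 in Lcn2, 1.08 in Ltf and 0.57 in Pglyrp1, and above 0 in 70.5% of 4410 genes. The layouts were far apart on the retained-intron counts of Ltf. These were 15659 in replicate 1 and 9146 in replicate 2 by kallisto layout, but 962 and 781 by RSEM layout. The retained-intron counts of Chil3 by kallisto layout, 411 in replicate 1 and 0 in replicate 2, were unlike those by RSEM layout, 35.6 and 42.4, and are given without a ratio.

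**Figure D3:**
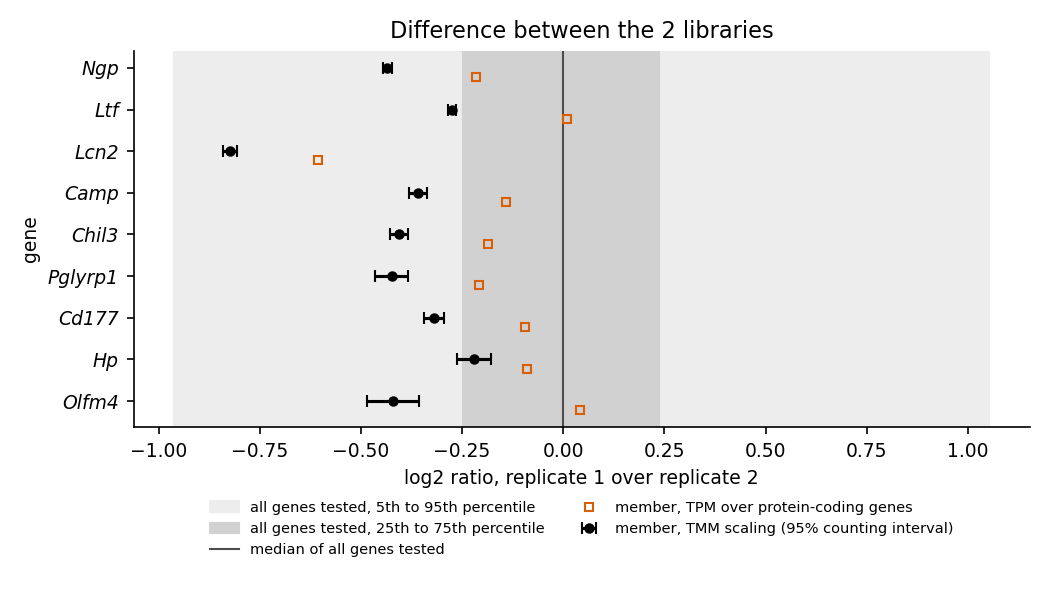
The log2 ratio of replicate 1 over replicate 2 for each of the 9 genes, as black points with 95% counting intervals after TMM scaling and open squares for TPM over protein-coding genes, on grey bands for the spread of all genes tested with TMM. All 9 black points lie below 0, from -0.82 for Lcn2 to -0.22 for Hp, while the squares of Ltf and Olfm4 lie just above 0.

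The levels of the members were set beside those of genes of the other granules. The median of the 9 secondary granule genes was 989 TPM in replicate 1 and 1556 TPM in replicate 2, while 9 primary granule genes had medians of 38.9 and 55.9 TPM. On log2(TPM + 0.1), the secondary list lay above the primary list by 4.67 in replicate 1 and 4.80 in replicate 2, or 4.73 ± 0.09 (SD, n = 2). The lists were chosen with earlier results of these data known, and the gap with other lists was not measured. A list of 12 further components of the peroxidase-negative granules, described below, had lower medians than the secondary list, at 147 and 236 TPM. Of the primary genes, Mpo, which encodes myeloperoxidase, was highest at 193 and 264 TPM, and Elane, neutrophil elastase, stood at 137 and 180 TPM. All members but Olfm4 stood above Mpo in each library, and Olfm4 lay below Mpo, Elane and Prtn3. Bpi had 0 and 1 counts.

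Counts of genes higher in either library, here and below, are with TMM scaling, and any positive log2 ratio under 0.74 turns negative with ERCC scaling. For each list they stand beside 16.7% of all genes tested as higher in replicate 2 and 14.6% as higher in replicate 1. Of the 716 genes with at least as many counts as Olfm4, these shares were 48.6% and 33.9%. Of 8 primary genes tested, 4 were higher in replicate 2 and 0 in replicate 1, with a median log2 ratio of -0.14. Whether that median differs from the members' -0.41 was not tested. Ctsc, the protease that activates the serine proteases of the granule, had the lowest ratio at -0.49 (adjusted p = 1.38e-16, exact binomial test), and Prtn3 the highest at 0.08, which did not pass.

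The tertiary granule list held Mmp9, Adam8, Slc11a1, Mmp25, Cda, Itgam, Fcer1g and Padi4. Whether the product of each is stored in these granules was not tested. These 8 genes had medians of 246 and 320 TPM in replicates 1 and 2. Mmp9, the gelatinase, was highest at 708 and 1167 TPM, in the range of Pglyrp1. Of 7 tested, 5 were higher in replicate 2 and 1 in replicate 1. The gene higher in replicate 1 was Adam8, a membrane metalloprotease, with 511 TPM in replicate 1 and 468 TPM in replicate 2 and a log2 ratio of 0.33 (adjusted p = 4.21e-107, exact binomial test). With TMM scaling Adam8 therefore went the opposite way from all 9 secondary genes. Cda had 0 counts in both libraries, which allows up to 0.201 TPM in replicate 1 and 0.236 TPM in replicate 2.

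Among 12 further components of the peroxidase-negative granules, 11 were higher in replicate 2 and 0 in replicate 1, with a median log2 ratio of -0.35. Lyz2, the lysozyme of myeloid cells, stood at 3751 TPM in replicate 1 and 5876 TPM in replicate 2, close to Ltf, and was the highest of the 12. The lowest was Plau, a plasminogen activator, at 8.22 and 11.7 TPM. Mmp8, the neutrophil collagenase, stood at 366 and 571 TPM, close to Cd177. Cybb and Cyba, the membrane subunits of the NADPH oxidase that these granules carry, stood at 363 and 252 TPM in replicate 1 and at 511 and 358 TPM in replicate 2.

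Genes of the mature neutrophil had medians of 301 and 472 TPM in replicates 1 and 2 over 10 genes. The secondary granule list lay above it by 1.78 in replicate 1 and 1.72 in replicate 2 on log2(TPM + 0.1), or 1.75 ± 0.04 (SD, n = 2). Mmp9 was the highest of them, and the chemokine receptor gene Cxcr2 the lowest at 114 and 174 TPM. Of these 10 genes, 8 were higher in replicate 2 and 2 in replicate 1. The chemokine gene Ccl6 had the lowest log2 ratio at -0.91, and Il1r2, the decoy receptor of interleukin 1, the highest at 0.22. Genes of proliferating precursors were lower, with medians of 51.4 and 68.4 TPM over 8 genes. Of these 8 genes, 4 passed the test as higher in replicate 2 and 0 as higher in replicate 1. By mean level the highest was the tubulin gene Tuba1b at 86.7 and 100.5 TPM, and the lowest Ccnb1, a mitotic cyclin, at 16.6 and 22.4 TPM. Mki67, a marker of cycling cells, stood at 69.4 and 100.2 TPM, close to the level of Olfm4.

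**Figure D4:**
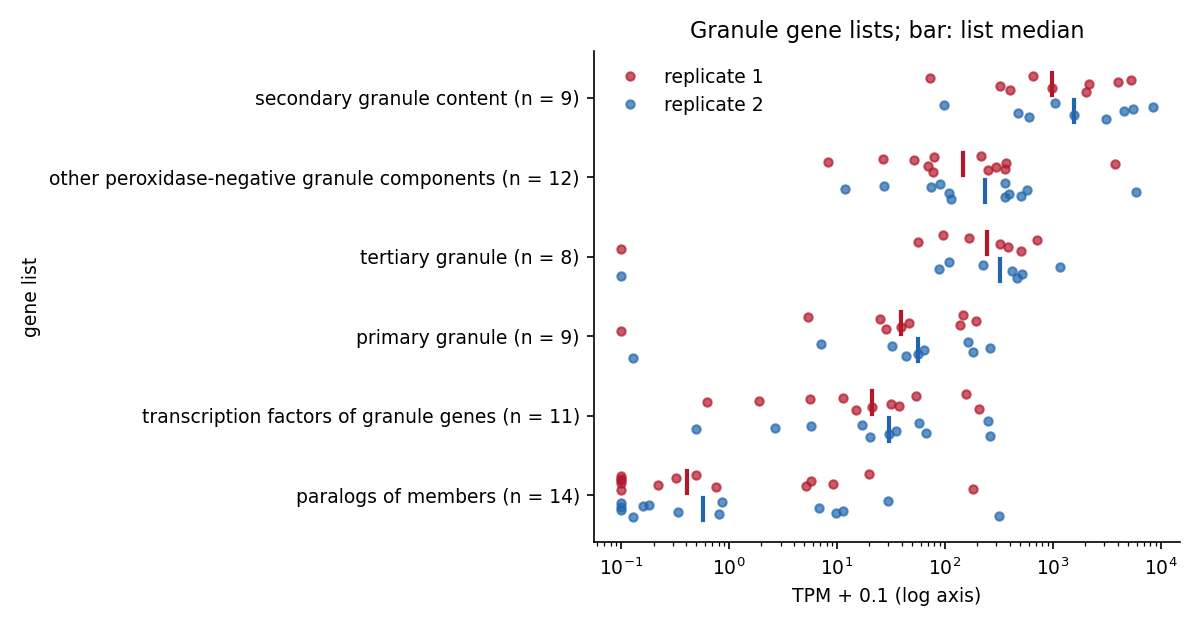
The level of each gene of 6 lists (secondary granule, other peroxidase-negative granule components, tertiary granule, primary granule, transcription factors and paralogs) as TPM + 0.1 on a log axis, with points for replicate 1 and replicate 2 and bars at the list medians. The secondary granule list has the highest median, 989 TPM in replicate 1 and 1556 TPM in replicate 2, and the primary granule list lies at 38.9 and 55.9 TPM.

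The transcription factors of granule genes were lower than most of the members, with medians of 20.8 and 30.0 TPM over 11 genes in replicates 1 and 2. Cebpb was highest at 205 and 261 TPM, followed by Spi1, which encodes PU.1, at 156 and 252 TPM. Cebpe, which encodes C/EBP epsilon, stood at 37.7 TPM in replicate 1 and 67.2 TPM in replicate 2. Its log2 ratio of -0.58 (adjusted p = 7.40e-21, exact binomial test) was the lowest of the 11 and lay between those of Lcn2 and Ngp. Gfi1, a repressor that acts in granulocyte maturation, stood at 5.56 and 5.67 TPM, and its ratio did not pass. The lowest was Gata1 at 0.52 and 0.39 TPM. Of the 11, 6 were higher in replicate 2 and 1 in replicate 1. The exception was Cux1, known as a repressor of the lactoferrin gene, with a log2 ratio of 0.17 (adjusted p = 3.55e-05, exact binomial test). Its deposited TPM was 31.4 in replicate 1 and 35.1 in replicate 2, a unit in which the median log2 ratio of all genes is itself -0.23.

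Paralogs of the members were mostly low, with 5 of 14 at 1 TPM or more in each library and medians of 0.305 and 0.475 TPM in replicates 1 and 2. Chil1, another chitinase-like gene, was highest at 183 and 317 TPM, with a log2 ratio of -0.60 (adjusted p = 5.36e-114, exact binomial test). Trf, which encodes transferrin, the iron carrier of plasma and paralog of lactoferrin, stood at 19.6 and 29.5 TPM. Chit1, an active chitinase, stood at 9.11 and 11.2 TPM and Chil5 at 5.07 and 9.65 TPM. Meltf, Olfm2 and Pglyrp3 had 0 counts in both libraries. Of 9 paralogs tested, 3 were higher in replicate 2 and 0 in replicate 1.

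Receptors and partners of the granule proteins were unevenly present. Trem1, a receptor for which Pglyrp1 is a ligand, stood at 280 TPM in replicate 1 and 404 TPM in replicate 2, and Fpr2, a formyl peptide receptor that responds to CRAMP, at 114 and 179 TPM. By mean level Itgam was the highest of the list. Itgam and Itgb2, the integrin chains with which CD177 associates in human neutrophils, stood at 325 and 296 TPM in replicate 1 and at 416 and 395 TPM in replicate 2. The partners of Cd177 also include Pecam1, which was at 2.32 and 3.32 TPM. Receptors of lipocalin 2 were near 0: Slc22a17 stood at 0.16 and 0.14 TPM, and Lrp2 had 0 counts in the RSEM-layout tables, with 0.620 and 0.674 TPM by kallisto layout. Cd163, the receptor of the haptoglobin and haemoglobin complex, stood at 0.66 TPM in replicate 1 and 0.76 TPM in replicate 2. Of 10 genes tested in this list, 6 were higher in replicate 2 and 0 in replicate 1.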

How the data were processed

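Total RNA-seq of 2 spleen neutrophil libraries, 1 group, was analysed from tables the authors deposited. Each library has a gene and a transcript table in the column layout of RSEM, with expected counts, TPM, FPKM and the percent of each gene's TPM per transcript, made by the authors from reads aligned to the mm10 transcriptome (GENCODE M21), per the files' notes. A further transcript table in the column layout of kallisto holds the authors' estimated counts and TPM. For program versions, the aligner and strand use in counting, the sources used here give nothing. Entries outside annotated genes, such as spike-ins, held 0.424% of expected counts in replicate 1 and 0.260% in replicate 2 and stayed out of library sizes and tests. Paternal alleles are CAST/EiJ while mm10 is C57BL/6, and the effect on counts was not tested.

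Expected counts were rounded for an exact two-sided binomial test per gene, given TMM effective library sizes (edgeR 4.0.16), with Benjamini-Hochberg adjustment over the 15118 genes whose counts reached 10 in both libraries together. DESeq2 1.42.0 gave size factors only. With 1 library on each side edgeR's quasi-likelihood test has no residual degrees of freedom. Ratios add 0.5 to each count. Intervals are exact 95% counting intervals, a count of 0 allows 3 counts, and both cover counting error only. The calculation was tested on simulated data that held counting error only. That simulation cannot show how the test fares with other variation between libraries. Counts were called whole within 0.005. R 4.3.3, Python 3.11.15, pandas 2.3.3, numpy 2.4.6, scipy 1.17.1 and matplotlib 3.10.9 were used.

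The members and the 16 gene lists were chosen with earlier results of these data known. All members may be named, the granule, maturation, precursor, factor, paralog and receptor lists are given by counts with their genes of highest and lowest mean level, the lists of other cell types by counts, sums and defining markers, and transcripts are named when leading or at 5% or more of the gene in both libraries by either table. Alternatives were other scalings, filters, pseudocounts, units, the kallisto layout and leaving out each library.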

Additional observations from a re-analysis of the deposited data

How the results depend on the processing

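No paired analysis was possible because there is 1 group and its replicate numbers pair no samples across groups. Of the genes tested, 4739 differed with TMM scaling and 11180 with ERCC scaling, and 3229 differed by at least 1.5-fold against 1527 at 2-fold. The members' median log2 ratio of -0.41 became -1.15 with ERCC scaling, -0.45 with total counts, -0.61 with deposited TPM, -0.14 with TPM over protein-coding genes and -0.66 with kallisto-layout TPM. In the single genes, the ratio changed sign in Ltf, to 0.0092, and in Olfm4, to 0.042, with TPM over protein-coding genes. The median level of 1273 TPM became 3220 over protein-coding genes alone, and ranged from 989 to 1556 when either library was left out. The gap to the primary granule list, 4.73, became 4.63 with genes of at least 1 TPM and 4.48 with kallisto layout, and ranged from 4.67 to 4.80 with a library left out. The gap to the mature list, 1.75, became 1.62 with kallisto layout and ranged from 1.72 to 1.78. The median share of the leading transcript, 93.7% by kallisto layout, became 98.4% by RSEM layout and 100% among protein-coding transcripts, and ranged from 88.8% to 94.0% with a library left out. For each, the cause was not tested. The fold of Ngp over Ltf by counts per kb or kallisto layout and the retained-intron comparison were added after the data were seen. With 2 libraries, precision is limited by their number and not by the members' counts.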

Other observations

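Gm4763, a neighbour of Cd177 that shares 31-base words with it, stood at 4.25 TPM in replicate 1 and 2.57 TPM in replicate 2 by RSEM layout. By kallisto layout it had 0.338 and 0.0712 TPM. Its partner BC049730 went the other way between the layouts, with 0.51 and 0.95 TPM by RSEM layout and 6.27 and 6.91 TPM by kallisto layout.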
